A study of Mus musculus with 10 samples.

Results

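The p53 pathway genes described here are 33 of the 36586 named genes in the expression tables, picked by gene symbol: the tumour suppressor Trp53, its regulators Mdm2 and Mdm4, and 30 genes reported to be induced by p53. Expression was measured in mouse embryonic stem cells of the JM8.N4 line by RNA-seq of poly-A RNA, with 1 library each from Rad23b-/- cells, from Rad23b-/- cells carrying a hairpin against Xpc (knockdown 1), from Rad23b-/- cells carrying a different, independent Xpc hairpin (knockdown 2), and from wild-type cells. Binding of RAD23B was mapped by ChIP-seq with an affinity-purified guinea pig antibody, with 1 RAD23B library and 1 IgG library from Xpc-/- embryonic stem cells of unnamed line, and 2 of each kind from wild-type embryonic stem cells of the D3 line. The series addresses the XPC DNA repair complex, of which RAD23B is a subunit, as a coactivator of transcription. Both knockdowns lack Rad23b as well, so no library shows the loss of XPC alone, and binding and expression were measured in different lines. Whether each null line is 1 clone is not given in the sources used here. With 1 RNA library per group there is no replicate spread and no test, and fewer cells expressing a gene cannot be told apart from less RNA per cell.

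p53 is a transcription factor that is kept low in unstressed cells because MDM2, itself made from a p53 target gene, marks it for destruction, while MDM4 holds back its activity. DNA damage and other stresses free p53, which then turns on genes that halt the cell cycle, start apoptosis, counter oxidative and metabolic stress, and help repair. Mouse embryonic stem cells are known for abundant p53 and a weak arrest at the G1 checkpoint.

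Sequence before the starts of these genes was taken from RefSeq (GRCm38.p6), which had 300-base windows, 250 bases before and 50 after a start, for 27 of the 33 genes, 40 windows in all. The 10-base p53 half-site consensus, which reads the same on both strands, was found in 14 of the 40 windows (35.0%), belonging to 13 genes, against 2745 of 32851 windows of all genes (8.36%) and 6.67% of the windows of protein-coding genes with at least 1 RPKM in wild-type cells. A pair of half-sites separated by at most 13 bases, the arrangement of a full p53 response element, was found at 1 member, Cdkn1a, and in 24 windows of all genes. The box GGGCGG, on either strand, was in 70.0% of member windows, against 35.7% of all windows and 64.7% of those of the expressed genes. The median ratio of observed to expected CpG was 0.73 in member windows, against 0.38 in all windows and 0.77 in those of the expressed genes. A match describes letters only. The 250 bases before the start are shown for the 2 core genes with a match, for the member with the pair and for 2 members at least 2-fold higher in Rad23b-null cells, 5′ to 3′ on the gene's strand, with half-site matches in capitals. The windows lie at chr11:69580109-69580358 on the plus strand for Trp53, chr10:117710759-117711008 on the minus strand for Mdm2, chr17:29090729-29090978 on the plus strand for the upstream of 2 listed Cdkn1a starts, chr6:67037408-67037657 on the minus strand for Gadd45a and chr3:137623422-137623671 on the plus strand for Ddit4l.
Trp53: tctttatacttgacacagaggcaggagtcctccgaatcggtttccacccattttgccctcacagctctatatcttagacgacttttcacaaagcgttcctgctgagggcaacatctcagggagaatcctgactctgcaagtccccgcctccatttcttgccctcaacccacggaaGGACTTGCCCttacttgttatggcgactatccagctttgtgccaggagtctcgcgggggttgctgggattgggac
Mdm2: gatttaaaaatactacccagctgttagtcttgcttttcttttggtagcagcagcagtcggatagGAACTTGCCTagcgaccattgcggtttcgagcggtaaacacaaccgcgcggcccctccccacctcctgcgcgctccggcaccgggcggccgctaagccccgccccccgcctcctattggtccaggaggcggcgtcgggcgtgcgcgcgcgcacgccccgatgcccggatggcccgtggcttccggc
Cdkn1a: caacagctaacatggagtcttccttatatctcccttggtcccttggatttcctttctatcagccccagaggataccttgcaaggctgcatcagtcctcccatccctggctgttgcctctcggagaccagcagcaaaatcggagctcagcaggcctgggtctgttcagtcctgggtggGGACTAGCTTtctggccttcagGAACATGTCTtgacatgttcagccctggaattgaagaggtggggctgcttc
Gadd45a: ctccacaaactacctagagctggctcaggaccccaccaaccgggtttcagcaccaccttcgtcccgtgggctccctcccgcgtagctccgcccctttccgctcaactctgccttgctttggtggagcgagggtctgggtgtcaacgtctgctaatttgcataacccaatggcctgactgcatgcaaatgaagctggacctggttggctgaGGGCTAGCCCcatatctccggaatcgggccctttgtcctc
Ddit4l: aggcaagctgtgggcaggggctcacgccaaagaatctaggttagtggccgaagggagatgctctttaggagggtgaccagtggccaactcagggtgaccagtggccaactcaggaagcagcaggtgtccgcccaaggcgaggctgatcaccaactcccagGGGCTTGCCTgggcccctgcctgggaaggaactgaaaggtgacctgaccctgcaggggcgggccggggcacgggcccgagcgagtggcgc
The first base of the match lay 75 bases before the Trp53 start, 186 before that of Mdm2, 73 and 51 before that of Cdkn1a, 40 before that of Gadd45a and 90 before that of Ddit4l. The Btg2 and Mdm4 windows held no match.

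The libraries were first checked at the genes that had been targeted and at markers of cell type. Rad23b stood at 43.9 RPKM (reads scaled to transcript length and library size) in Rad23b-null cells, 36.8 in knockdown 1, 53.4 in knockdown 2 and 229 in wild type. Xpc was at 8.34 RPKM in Rad23b-null cells, 0.939 in knockdown 1, 0.910 in knockdown 2 and 8.73 in wild type. All 10 stem cell markers exceeded 1 RPKM in every library, and 7 of them were at least 2-fold lower than in wild type in each mutant library. The summed level of 10 trophectoderm markers was 163 RPKM in Rad23b-null cells, 151 in knockdown 1, 114 in knockdown 2 and 84.4 in wild type, with Krt19 and Hand1 at least 2-fold higher in each mutant. The other trophectoderm markers did not all follow: the median log2 ratio of those that passed 1 RPKM was 0.46 in Rad23b-null cells (7 genes), 0.56 in knockdown 1 (8) and -0.10 in knockdown 2 (8), where Krt8, Krt18 and Eomes were lower than in wild type. The defining gene Cdx2 stood at 0.649 RPKM in Rad23b-null cells, 0.612 in knockdown 1, 0.764 in knockdown 2 and 0.0991 in wild type. The summed level of 12 fibroblast markers ran from 59.3 to 74.0 RPKM in the mutants, against 136 in wild type, nearly all of it Fn1. The defining markers Col3a1 and Postn were at or near 0 in all libraries, and 9 of the 12 were under 1 RPKM in each mutant and 10 in wild type. The summed level of 10 primitive endoderm markers ran from 63.1 to 69.3 RPKM in the mutants, against 60.9 in wild type. The part of these cell type shifts in the values below was not tested.

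Trp53 itself stood at well under the wild-type level in all mutant libraries, and its targets took both signs. Of the 32 members that passed 1 RPKM, 20 stood above wild type in every mutant, with Perp, Gadd45a, Btg2, Ddit4l, Plk2 and Gdf15 at least 1.5-fold above it. Below wild type in every mutant were 7, namely Trp53, Ccng1, Tnfrsf10b, Aen, Ei24, Sesn1 and Steap3, and the others differed in sign between mutants. The shares of all genes that did the same in every mutant are not given here. These joint counts are therefore not read as a trait of the members. Of the 33 genes, 32 reached 1 RPKM in at least 1 library of each comparison, in fact in all 4 libraries, and Fas did not. Differences are given as log2 ratios of RPKM + 1, a scale that understates the difference of genes with low values, and knockdown levels are given after scaling to the wild-type values of the Rad23b-null table. In Rad23b-null cells 3 of the 32 were at least 2-fold higher than in wild type (4.74% of all genes) and 1 was at least 2-fold lower (4.61%). In knockdown 1 there were 2 higher (3.95%) and 1 lower (3.4%), and in knockdown 2 there were 2 higher (3.93%) and 1 lower (3.6%). Each of these counts rests on 1 to 3 genes, too few to set apart from the shares of all genes. At 1.5-fold, 8 members were higher and 2 lower in Rad23b-null cells (10.8% and 16.4% of all genes), 7 higher and 1 lower in knockdown 1 (9.1% and 12.4%), and 7 higher and 3 lower in knockdown 2 (9.61% and 13.7%).

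The median over the 32 members was 0.33 in Rad23b-null cells, 0.35 in knockdown 1 cells and 0.16 in knockdown 2 against wild type. The medians of all genes tested lay below 0, at -0.16, -0.14 and -0.14 in the same order, so a gene at 0 already stood above most genes. Relative to those medians, 24 of 32 members were higher in Rad23b-null cells, 26 in knockdown 1 cells and 24 in knockdown 2. With ratios centred on them, 4 members were at least 2-fold higher (6.2%) and 1 lower (3.07%) in Rad23b-null cells, 3 higher (5.06%) and 0 lower (2.5%) in knockdown 1, and 2 higher (5.12%) and 1 lower (2.66%) in knockdown 2. At 1.5-fold the centred counts were 13 higher (15.5%) and 1 lower (9.61%) in Rad23b-null cells, 12 higher (12.7%) and 1 lower (7.73%) in knockdown 1, and 9 higher (13.5%) and 2 lower (8.19%) in knockdown 2. The 3 comparisons share the wild-type library and are therefore not independent of each other. That library held the lowest of the 4 values for 21 of the 33 genes and the highest for 7. The same counts over all genes are not given here, so these are not read as a trait of the members. The only pair of libraries of like genotype, knockdown 2 against knockdown 1, gives an idea of how far libraries stand apart: 68% of all genes differed by at most 0.22 between them.

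**Figure D1:**
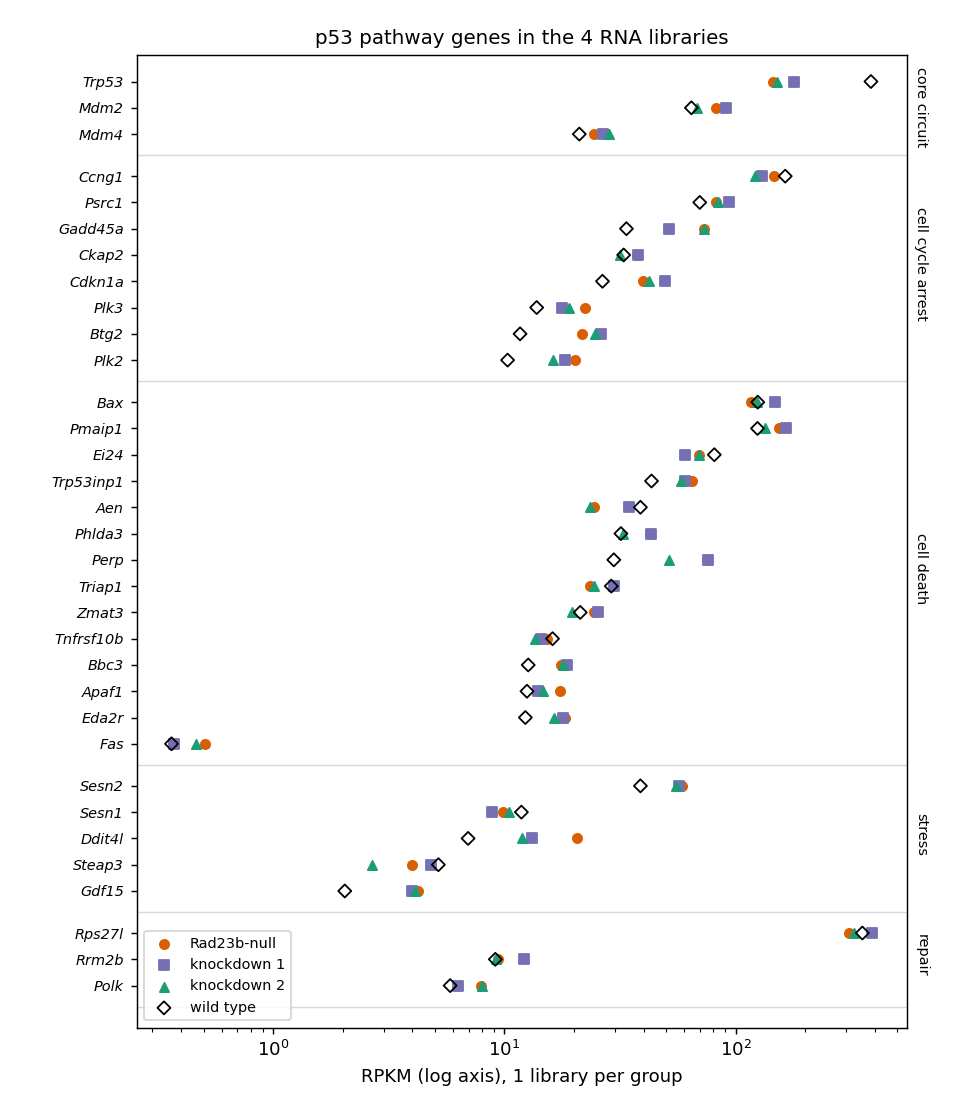
RPKM on a log axis of the 33 p53 pathway genes (rows, grouped by role and ordered by wild-type level) in Rad23b-null, knockdown 1, knockdown 2 and wild-type cells, 1 point per library with no error bars because each group has 1 library. Wild-type diamonds stand far to the right of the mutants for Trp53 (385 RPKM) and to the left for Perp (29.7), Btg2 (11.7) and Ddit4l (6.96).

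Among the core genes, Trp53 was the member of highest wild-type level. It stood at 144 RPKM in Rad23b-null cells, 179.6 in knockdown 1 cells and 151 in knockdown 2, against 385 in wild type. The log2 ratio to wild type was -1.41 in Rad23b-null cells, -1.09 in knockdown 1 cells and -1.34 in knockdown 2, so the mutants lay near each other and apart from wild type. In the authors' deposited table the ratio was 0.376 with p = 0.188 for Rad23b-null cells, 0.467 with p = 0.179 for knockdown 1 and 0.393 with p = 0.145 for knockdown 2. A short row for the processed pseudogene Trp53-ps, which reads of Trp53 could be split with, was at 2.19 RPKM in Rad23b-null cells, near 0 in knockdown 1, at 6.64 in knockdown 2 and near 0 in wild type, low beside Trp53 itself.

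Trp53 lies on chromosome 11, whose genes as a whole were lower in the mutants. The median log2 ratio of chromosome 11 genes was -0.44 in Rad23b-null cells (1274 genes), -0.45 in knockdown 1 (1252) and -0.44 in knockdown 2 (1254). The medians of the other chromosomes ran from -0.23 to -0.05 in Rad23b-null cells, from -0.21 to -0.07 in knockdown 1 and from -0.19 to -0.05 in knockdown 2. At least 2-fold lower were 12.7% of chromosome 11 genes in Rad23b-null cells, 9.35% in knockdown 1 cells and 10.6% in knockdown 2, against 3.84%, 2.86% and 2.94% of genes on the other chromosomes. Chromosome 11 thus stood apart from every other chromosome in all 3 mutants. Relative to the median of its own chromosome, Trp53 lay at -0.96 in Rad23b-null cells, -0.64 in knockdown 1 cells and -0.90 in knockdown 2, less than 2-fold lower in each. It still lay at percentile 3.92, 6.63 and 3.99 of the chromosome's genes in those libraries. Wrap53, the nearest gene and one that starts on the other strand beside it, stood at 12.9 RPKM in Rad23b-null cells, 10.98 in knockdown 1, 12.3 in knockdown 2 and 21.9 in wild type. What part the shift of the whole chromosome has in the Trp53 value was not tested.

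**Figure D2:**
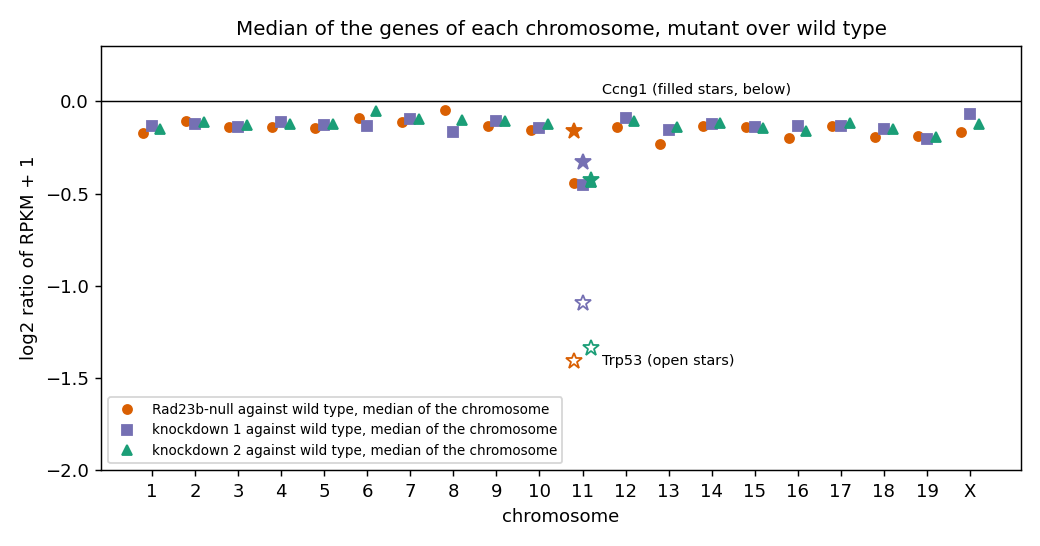
Median log2 ratio of RPKM + 1 over the genes of each chromosome (x axis) for Rad23b-null, knockdown 1 and knockdown 2 cells against wild type, with Trp53 as open stars and Ccng1 as filled stars. Chromosome 11 is the lowest in each comparison (-0.44, -0.45 and -0.44), and Trp53 lies below it.

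The 2 genes that restrain p53 stood less than 1.5-fold above wild type. Mdm2, the ubiquitin ligase, stood at 82.6 RPKM in Rad23b-null cells, 90.9 in knockdown 1, 68.1 in knockdown 2 and 64.3 in wild type. Its log2 ratio to wild type was 0.36, 0.49 and 0.08 in that order of mutants, so knockdown 2 was close to wild type. Mdm4, the related inhibitor, stood at 24.3 RPKM in Rad23b-null cells, 26.7 in knockdown 1, 28.4 in knockdown 2 and 21.1 in wild type, with log2 ratios of 0.20, 0.33 and 0.41. The wild-type library was the lowest for both genes.

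Of the 8 members that act in cell cycle arrest, 3 (Btg2, Gadd45a and Plk2) were at least 1.5-fold higher than wild type in every mutant library. Cdkn1a was so in the knockdowns and Plk3 in Rad23b-null cells, which makes 4 in each library (against 10.8% of all genes in Rad23b-null cells, 9.1% in knockdown 1 cells and 9.61% in knockdown 2), and none was 1.5-fold lower. Their median log2 ratio was 0.61 in Rad23b-null cells, 0.51 in knockdown 1 cells and 0.52 in knockdown 2. Cdkn1a, which encodes the cyclin-dependent kinase inhibitor p21, stood at 39.7 RPKM in Rad23b-null cells, 49.5 in knockdown 1, 42.3 in knockdown 2 and 26.5 in wild type. The mutants lay 0.56, 0.87 and 0.65 above wild type on the log2 scale. Btg2, an antiproliferative gene that modulates mRNA deadenylation, stood at 21.5 RPKM in Rad23b-null cells, 26.3 in knockdown 1, 24.7 in knockdown 2 and 11.7 in wild type. Its log2 ratio was 0.83 in Rad23b-null cells, 1.10 in knockdown 1 cells and 1.02 in knockdown 2, at least 2-fold in both knockdowns. The authors' deposited table gives p = 0.083, p = 0.011 and p = 0.022 for Btg2 in that order.

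Gadd45a, a stress sensor of the growth arrest and DNA damage family, stood at 73.2 RPKM in Rad23b-null cells, 51.4 in knockdown 1, 73.2 in knockdown 2 and 33.7 in wild type. The log2 ratio was 1.10 in Rad23b-null cells and in knockdown 2, and 0.59 in knockdown 1, the lowest of the mutants. Gadd45a is listed on the same coordinates as the noncoding gene E230016M11Rik, which stood at 43.5 RPKM in Rad23b-null cells, 29.4 in knockdown 1, 42.1 in knockdown 2 and 21.3 in wild type, in the same order of libraries, so reads of this locus may have been divided between them. The Polo-like kinase Plk2 had log2 ratios of 0.90, 0.77 and 0.61 and Plk3 of 0.65, 0.33 and 0.43 in Rad23b-null, knockdown 1 and knockdown 2 cells. The spindle proteins Psrc1 (0.23, 0.42 and 0.26) and Ckap2 (0.19, 0.20 and -0.04) stood nearer to wild type. Ccng1, cyclin G1, was lower than wild type at -0.16, -0.33 and -0.43. Ccng1 is the other member on chromosome 11, and relative to that chromosome's median it stood at 0.28, 0.12 and 0.01.

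**Figure D3:**
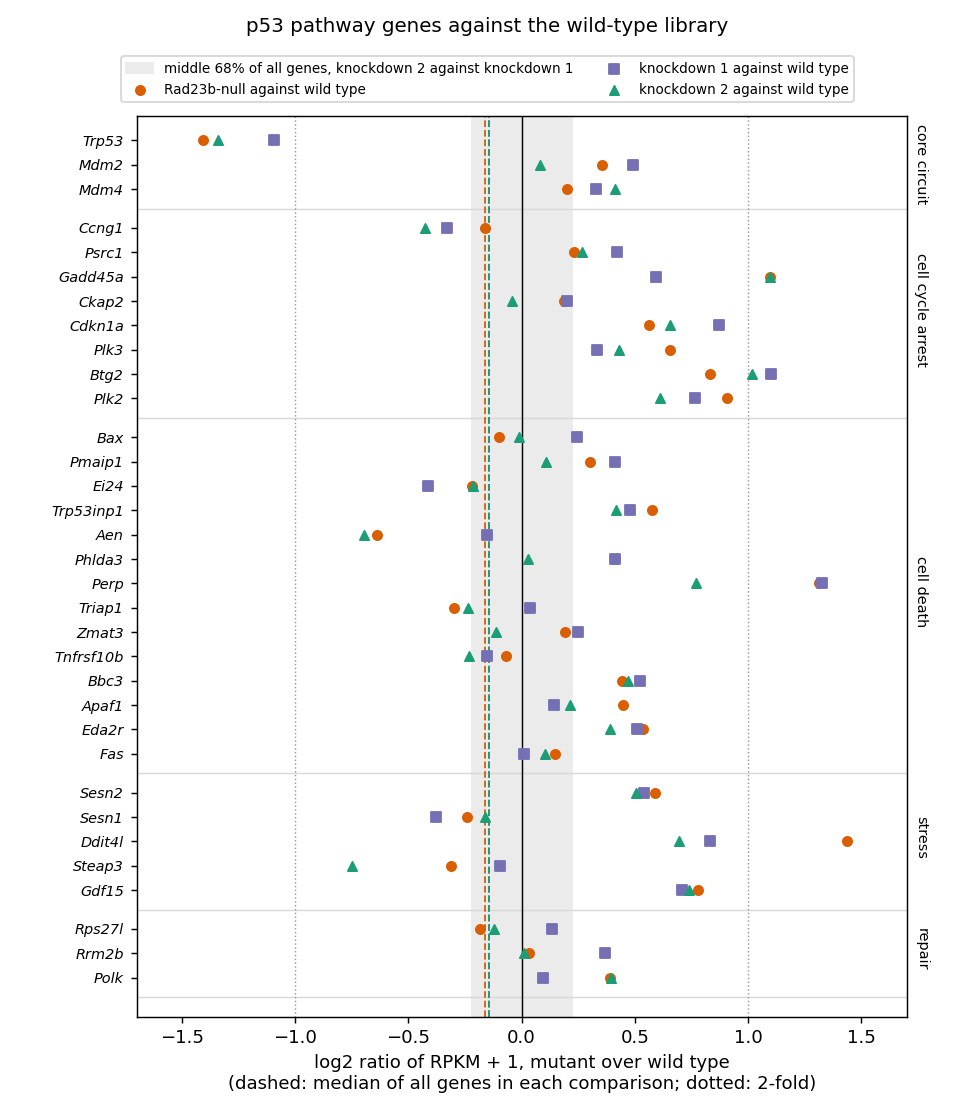
Log2 ratio of RPKM + 1 over wild type for each p53 pathway gene in Rad23b-null, knockdown 1 and knockdown 2 cells. Dashed lines are the medians of all genes (-0.16, -0.14 and -0.14), the grey band holds 68% of all genes in knockdown 2 against knockdown 1 (0.22 to either side), and Trp53 is the only gene left of the dotted line of 2-fold lower. Fas is drawn although it was under 1 RPKM in all libraries.

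Of the 14 members that act in cell death, 13 passed 1 RPKM, and 1 of them, Perp, was at least 1.5-fold higher in each mutant, while Aen was 1.5-fold lower in Rad23b-null and knockdown 2 cells. Perp, a membrane protein of desmosomes that takes part in p53-dependent apoptosis, stood at 75.4 RPKM in Rad23b-null cells, 75.9 in knockdown 1, 51.4 in knockdown 2 and 29.7 in wild type. The log2 ratio was 1.31 in Rad23b-null cells, 1.32 in knockdown 1 cells and 0.77 in knockdown 2, the lowest of the mutants but above wild type. In the authors' deposited table Perp has p = 0.006 for Rad23b-null cells, p = 0.002 for knockdown 1 and p = 0.082 for knockdown 2. Whether these p-values are adjusted is not given in the sources used here, and each rests on 1 library per group.

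Log2 ratios for the other members are given for Rad23b-null, knockdown 1 and knockdown 2 cells in that order. The BH3-only activators of mitochondrial apoptosis were above wild type. Bbc3, which encodes PUMA, had log2 ratios of 0.44 in Rad23b-null cells, 0.52 in knockdown 1 cells and 0.47 in knockdown 2. Pmaip1, which encodes NOXA, had 0.30, 0.41 and 0.11 and was high in all libraries, at 154 RPKM in Rad23b-null cells, 166 in knockdown 1, 134 in knockdown 2 and 124 in wild type. The pore former Bax, at -0.10, 0.25 and -0.01, took both signs. Apaf1, the apoptosome scaffold, had 0.45, 0.14 and 0.21, on coordinates shared with a U6 row.

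Death receptors and other effectors differed among themselves. Fas, the death receptor with the lowest level of any member, stood at 0.508 RPKM in Rad23b-null cells, 0.371 in knockdown 1, 0.463 in knockdown 2 and 0.363 in wild type, and its ratio enters no count. Tnfrsf10b, the TRAIL receptor, had log2 ratios of -0.07, -0.15 and -0.23 in Rad23b-null, knockdown 1 and knockdown 2 cells, and Eda2r, a receptor for an ectodysplasin, had 0.54, 0.51 and 0.39. Trp53inp1, which helps p53 in apoptosis and autophagy, had 0.57, 0.48 and 0.42, and the AKT inhibitor Phlda3 had 0.41, 0.41 and 0.03. Zmat3, an RNA-binding zinc finger gene, had 0.19, 0.25 and -0.11. Aen, an apoptosis-enhancing nuclease, was the death gene farthest below wild type in Rad23b-null cells and knockdown 2, at -0.64, -0.15 and -0.70. Triap1, an inhibitor of apoptosis, had -0.30, 0.03 and -0.24, and Ei24, a protein of the endoplasmic reticulum, had -0.22, -0.41 and -0.21, the lowest of the death genes in knockdown 1. Relative to the medians of all genes, Aen in knockdown 1 stood at -0.01.

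The 5 stress genes split. Ddit4l, an inhibitor of TORC1 signalling, stood at 20.5 RPKM in Rad23b-null cells, 13.2 in knockdown 1, 11.9 in knockdown 2 and 6.96 in wild type. The log2 ratio was 1.43 in Rad23b-null cells, 0.83 in knockdown 1 cells and 0.70 in knockdown 2, the largest value of any member in Rad23b-null cells. Gdf15, a secreted stress cytokine, stood at 4.22 RPKM in Rad23b-null cells, 3.98 in knockdown 1, 4.08 in knockdown 2 and 2.04 in wild type. Its log2 ratios were 0.78, 0.71 and 0.74, nearly equal in the 3 mutants. The ratios without a pseudocount in the authors' deposited table were 2.07, 1.95 and 2.002 for Gdf15. Of the sestrins, which restrain TORC1, Sesn2 had log2 ratios of 0.59, 0.54 and 0.50 in Rad23b-null, knockdown 1 and knockdown 2 cells, while Sesn1 had -0.24, -0.38 and -0.16. Steap3, a metalloreductase, had -0.31, -0.09 and -0.75.

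None of the 3 genes for repair and its supplies stood 1.5-fold from wild type. Rrm2b, a ribonucleotide reductase subunit that supplies deoxynucleotides, had log2 ratios of 0.03, 0.37 and 0.01 in Rad23b-null, knockdown 1 and knockdown 2 cells. Rrm2b is listed on coordinates shared with Gm3362, which stood at 103 RPKM in Rad23b-null cells, 129 in knockdown 1, 122 in knockdown 2 and 196 in wild type, far above the 9.36, 12.1, 9.20 and 9.13 RPKM of Rrm2b in those libraries. Polk, a translesion DNA polymerase, had 0.39, 0.10 and 0.39. Rps27l, a ribosomal protein paralogue whose reads could be confounded with those of Rps27 and its pseudogenes, stood at 310.5 RPKM in Rad23b-null cells, 388 in knockdown 1, 324 in knockdown 2 and 353 in wild type.

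Between the knockdowns and the Rad23b-null library the members differed little. In knockdown 1 against Rad23b-null cells no member was at least 2-fold higher (1.58% of all genes) or lower (2.04%), and at 1.5-fold only Ddit4l was lower, at -0.60 (3.91% of all genes), while none was higher (3.73%). In knockdown 2 against Rad23b-null cells again no member was at least 2-fold higher (1.65%) or lower (1.8%), and at 1.5-fold only Ddit4l was lower, at -0.74 (3.46%), while none was higher (2.93%). The member medians were 0.01 in knockdown 1 cells and -0.07 in knockdown 2 against Rad23b-null cells, beside medians of all genes of 0.03 and 0.02. These comparisons share the Rad23b-null library. Perp stood at 0.01 in knockdown 1 cells and -0.54 in knockdown 2 against Rad23b-null cells, and Gadd45a at -0.50 and 0.00.

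Between the hairpins, knockdown 2 was lower than knockdown 1 for 24 of the 32 members and higher for 8 (25%), while 48.3% of all genes were higher. The member median was -0.15 beside -0.01 for all genes. None was at least 2-fold higher (1.7%) or lower (1.68%), and Steap3, at -0.66, was the only one 1.5-fold lower (3.34%), with none higher (3.49%). Perp (-0.55), Aen (-0.54) and Mdm2 (-0.41) stood lower in knockdown 2, while Gadd45a stood higher, at 0.50. Trp53 differed by -0.25. Of the 32 members, 17 lay within the 0.22 that held 68% of all genes. Zmat3 (-0.36), Rps27l (-0.26), Bax (-0.26) and Ckap2 (-0.24) differed more between the hairpins than between any mutant and wild type.

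The rest of the pathway was read from 4 lists that share no gene with the members. Of 24 regulators of p53 that passed 1 RPKM, 2 were at least 2-fold higher and 3 lower in Rad23b-null cells (4.74% and 4.61% of all genes), 2 higher and 0 lower in knockdown 1 (3.95% and 3.4%), and 2 higher and 2 lower in knockdown 2 (3.93% and 3.6%). The median regulator lay at -0.36 in Rad23b-null cells, -0.30 in knockdown 1 cells and -0.33 in knockdown 2, beside -0.16, -0.14 and -0.14 for all genes. Cdkn2a, which encodes the MDM2 inhibitor ARF in mouse and the kinase inhibitor p16, stood at 9.88 RPKM in Rad23b-null cells, 11.1 in knockdown 1, 9.38 in knockdown 2 and 3.53 in wild type. All mutants exceeded wild type, by 1.26, 1.41 and 1.19 on the log2 scale. The phosphatase gene Ptprv stood at 1.58 RPKM in Rad23b-null cells, 2.20 in knockdown 1 cells and 1.97 in knockdown 2 and has in wild type the value of exactly 1 that the tables hold for silent genes, read here as 0, so no fold is given. The deacetylase Sirt1, which acts on p53, had log2 ratios of -1.03, -0.88 and -1.05, and the checkpoint kinase Chek2 had -1.07, -0.57 and -0.67. The nucleolar protein gene Npm1, which is on chromosome 11 and has many processed copies, had -1.15, -0.90 and -1.06.

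Of the other reported p53 targets, 39 passed 1 RPKM in Rad23b-null cells and 38 in either knockdown. The shares of all genes just given apply to these counts too, each of 3 genes or fewer. In Rad23b-null cells 2 were at least 2-fold higher, the tetraspanin Cd82 (1.02) and Cgref1 (1.03), and 1 was lower, the antiproliferative gene Tob1 on chromosome 11 (-1.34). In knockdown 1 Cd82 (1.02) and the epoxide hydrolase Ephx1 (1.05) were higher and Xpc, the gene targeted there, was lower (-2.31). In knockdown 2 none was higher, and Xpc (-2.34) and Tob1 (-1.12) were among those lower. The list median was 0.16 in Rad23b-null cells, 0.03 in knockdown 1 cells and 0.03 in knockdown 2, above the medians of all genes. Shared cell death genes had no member 2-fold apart in any mutant among 14 that passed, with medians of -0.03, 0.03 and -0.13. The G2 and M phase genes, which are lowered through p21 when p53 is active, had none 2-fold apart among 20 and medians of -0.47 in Rad23b-null cells, -0.35 in knockdown 1 cells and -0.54 in knockdown 2. Without the genes of chromosome 11, a choice made after seeing the data, the G2 and M median was -0.40, -0.25 and -0.53 over 17 genes.

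**Figure D4:**
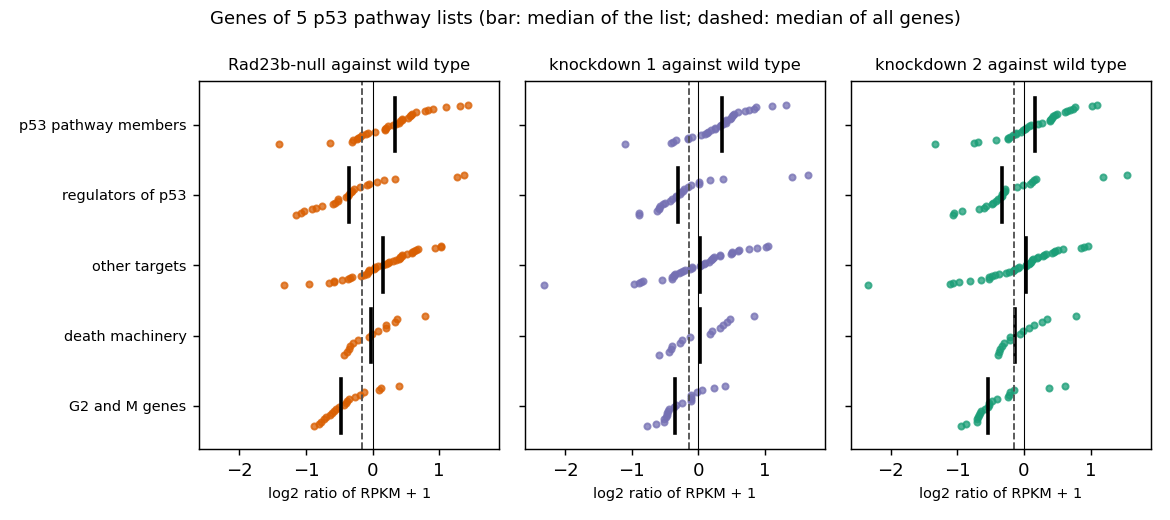
Log2 ratio of RPKM + 1 over wild type for each gene that passed 1 RPKM in the p53 pathway members and in 4 wider lists, in Rad23b-null, knockdown 1 and knockdown 2 cells (panels), with the list median as a bar and the median of all genes as a dashed line. The members' bar lies right of the dashed line in each panel (0.33, 0.35 and 0.16), and the bar of the G2 and M genes lies left of it (-0.47, -0.35 and -0.54).

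RAD23B regions were listed at nearly all of these loci in wild-type D3 cells, as at most expressed genes. A region listed in both replicates lay in the locus or within 5 kb for 32 of the 33 members, 82 regions in all, against 57.5% of all genes and 88.9% of protein-coding genes with at least 1 RPKM in wild type. Apaf1 had 3 regions in replicate 1 only. The number of shared regions was 1 for 8 members, 2 for 11, 3 for 5, 4 for 6, 6 for Plk3 and 7 for Sesn2. Because 7 members (Apaf1, Ei24, Gadd45a, Plk3, Polk, Rrm2b and Sesn2) are listed on coordinates they share with another gene, places were read from the other 26. All 26 had a shared region (85.3% of protein-coding genes with at least 1 RPKM and coordinates of their own). Of these 26, 25 had one within 1 kb of the listed start, against 34.2% of all genes and 75.3% of those protein-coding genes. In 22 of the 26 a shared region covered the listed start. The share of all genes that did so is not given here, so 22 is not read as many or few. Fas, the member with the lowest RPKM, also had a region over its start, with an authors' fold of 1.74 in replicate 1 and 1.88 in replicate 2.

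The 22 regions over starts had a median authors' fold over IgG of 1.78 in replicate 1 and 1.92 in replicate 2, and the 23 regions farther inside genes had 2.18 and 2.16. The other 7 upstream and 6 downstream regions had medians of 1.84 and 1.75 in replicate 1. The fold is the authors' ratio of reads scaled between libraries and is used here only as a description. Places were read from a single listed start per gene. Some genes, among them Cdkn1a and Sesn1, have further RefSeq starts downstream. If the listed starts of these genes are the upstream RefSeq ones, a region counted as inside covers the further start in each. The medians of regions over starts and inside genes are therefore not a clean contrast. The shared regions of highest fold lay away from the listed starts. The one at Trp53, chr11:69394586-69396373 (mm9), began 726 bases and ended 2513 bases after the listed start. It held 778 RAD23B and 206 IgG reads in replicate 1 (fold 3.59), and 386 RAD23B and 121 IgG reads in replicate 2 (fold 3.17). The region over the Trp53 start, chr11:69393577-69394212, was weaker, with 267 RAD23B and 122 IgG reads in replicate 1 (fold 2.08) and 123 and 81 in replicate 2 (fold 1.51). That region also covered the listed start of Wrap53 on the other strand, so it cannot be given to Trp53 alone. Another lay at chr11:69392478-69393222, upstream of Trp53 and inside the Wrap53 locus, with a fold of 1.52 in replicate 1 and 1.81 in replicate 2.

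At Mdm2 the region with the most reads, chr10:117146915-117148160, covered the start, with 384 RAD23B and 174 IgG reads in replicate 1 (fold 2.10) and 212 and 103 in replicate 2 (fold 2.05). A pair of further regions lay upstream, at chr10:117148459-117148932 (fold 1.93 and 2.44) and chr10:117149424-117149910 (fold 1.84 and 1.81 in the replicates). Cdkn1a carried 4 shared regions. The one over its listed start, chr17:29227623-29228197, held 172 RAD23B and 92 IgG reads in replicate 1 (fold 1.77) and 83 and 37 in replicate 2 (fold 2.21). The others lay inside the gene at chr17:29230237-29231137 (fold 2.25 and 2.32), chr17:29232071-29232840 (2.02 and 2.16) and chr17:29234150-29234517 (2.49 and 2.39). The downstream RefSeq start of Cdkn1a was not used in placing them. The GRCm38 windows of the 2 RefSeq starts begin at 29090729 and 29093519. The region chr17:29230237-29231137 ran from 2314 to 3214 bases after the listed start. It covers the downstream RefSeq start if the listed start is the upstream one.

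The member with the highest fold in both replicates was Ei24, at chr9:36609456-36609956, with 139 RAD23B and 23 IgG reads in replicate 1 (fold 5.57) and 65 and 11 in replicate 2 (fold 5.50), upstream of its listed, shared locus. By the replicate 1 fold Trp53 came next and then Gadd45a, with chr6:66980175-66981212 (fold 3.43 and 3.001), beyond the end of its shared locus. Sesn1 had a fold of 3.40 in replicate 1 and 3.43 in replicate 2 at chr10:41603628-41604019, which began 73249 bases after its listed start. Aen had 3.34 and 4.67 at chr7:86039886-86040331, from -853 to -408 bases relative to its start. The order was another in replicate 2, where Aen came second and Mdm4 next, with chr1:134915592-134916398 inside the gene (fold 3.20 in replicate 1 and 4.15 in replicate 2), and where Eda2r (2.98 and 3.55) also exceeded Trp53. Among the members highest against wild type in the mutants, Gadd45a thus had one of the higher folds, but beyond the end of its shared locus. Inside that locus its shared regions had folds of 1.83 and 2.17 in replicate 1, and 1.59 and 2.75 in replicate 2. Ddit4l had at most 2.18 and 2.32, and Perp had 1 region, over its start (1.76 and 1.94). Btg2 had 1 over its start (1.65 and 1.91) and 1 upstream (1.79 and 1.95).

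**Figure D5:**
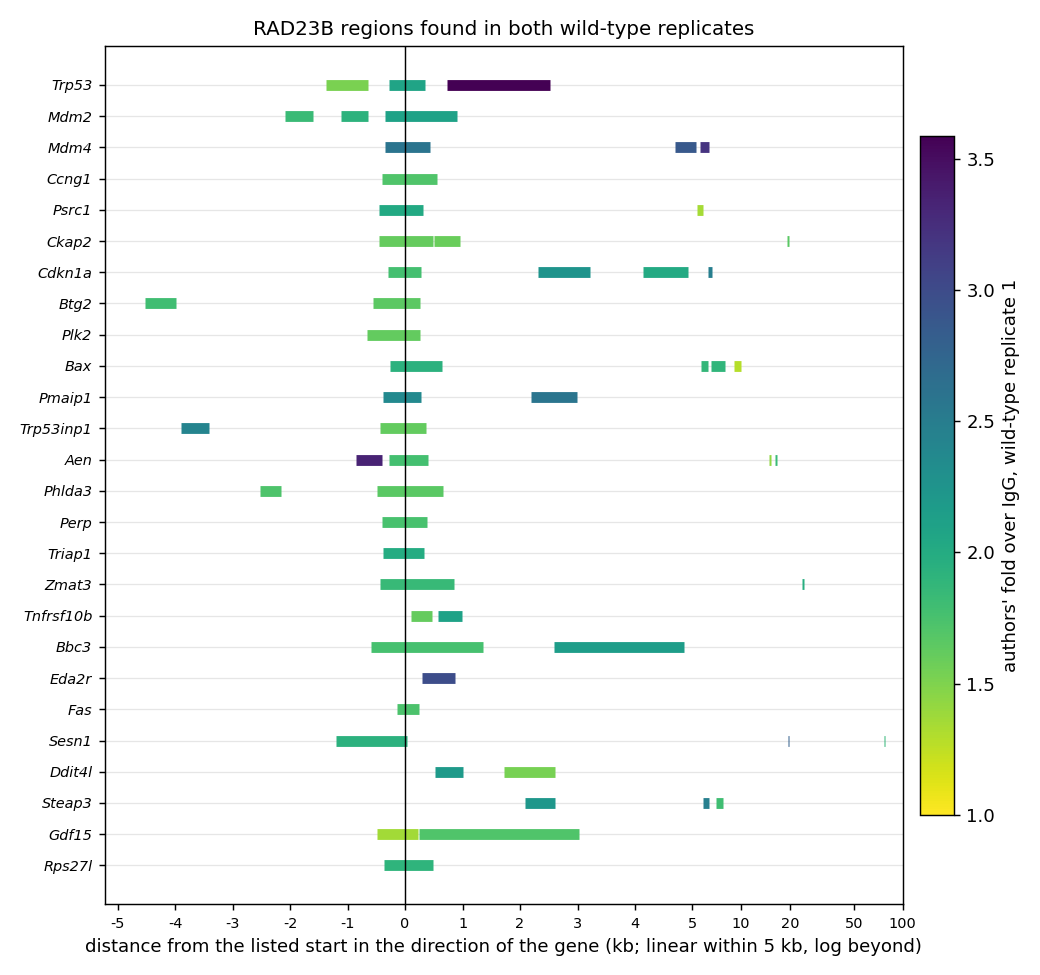
RAD23B regions found in both wild-type replicates at the 26 p53 pathway genes with coordinates of their own, by distance from the listed start in the direction of the gene (x axis in kb, linear within 5 kb and log beyond), coloured by the authors' fold over IgG in replicate 1. A region covers the listed start in 22 genes, a count given without the share of all genes. The darkest bar is the region inside Trp53 (fold 3.59).

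In the Xpc-/- list, which has no replicate, 1 of the 33 members had a region, Gdf15, against 3.49% of all genes and 5.92% of protein-coding genes with at least 1 RPKM in wild type. The region, chr8:73153543-73154029, lay inside the gene and held 126 reads in the column headed RAD23B and 196 in the column headed IgG, with an authors' fold of 1.27. In that list the fold follows IgG over RAD23B, with a relative spread of the quotient of 0.00468, against 0.531 for RAD23B over IgG, so the value at Gdf15 is not read here as enrichment of RAD23B. Chromosome 8, where Gdf15 lies, held 477 of the 828 regions of the list. In wild-type D3 cells the region that covers the same stretch of Gdf15, chr8:73153326-73156113, held 1480 RAD23B and 822 IgG reads in replicate 1 (fold 1.72) and 665 and 364 in replicate 2 (fold 1.83).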

How the data were processed

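The 4 RNA libraries came as 3 tables, each with 1 mutant library beside wild type. RPKM values were made by the authors with TopHat2 2.0.6, Cufflinks 2.0.2 and Cuffdiff, per the submitters' processing notes, and each table also holds the authors' ratio and p-value. Read totals of these libraries are unknown; steps of low values put the mutants at 1.29, 1.23 and 1.26 times the wild-type depth. An exact value of 1, which the tables hold for silent genes, was read as 0. Each table was scaled on its own, and printed knockdown levels were multiplied by 1.026 (knockdown 1) and 1.017 (knockdown 2), the median ratios between wild-type values of the tables. Ratios used RPKM + 1 within a table, over genes with at least 1 RPKM in either library. The 3 lists of RAD23B regions (59768 and 42364 for wild-type replicates 1 and 2, 828 for Xpc-/-) hold deposited counts of reads, RPM, the authors' fold ratio and p-value, made with Partek on mm9, per the submitters' processing notes; maximum over RPM gave depths of 109, 62.5 and 145 M reads. The headings of the replicate 2 list name the replicate 1 libraries. Nothing in the labels says that replicates were separate cultures. Regions overlapping by at least 1 base in the replicates were called shared. Members and lists were chosen with earlier results of these data known. Named library by library were members at least 2-fold from wild type in any mutant, the core genes, Cdkn1a and the members of highest and lowest wild-type RPKM; wider-list genes were named at 2-fold, except 1 that is not reported here, and regions in full for the 5 highest folds, Trp53, Mdm2 and Cdkn1a. Usp10 and Ak1 had no row under the names used. Scripts (Python 3.11.15, pandas 2.3.3) were tested on simulated data.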

Additional observations from a re-analysis of the deposited data

How the results depend on the processing

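At 1.5-fold instead of 2-fold, the counts against wild type were 8 higher and 2 lower in Rad23b-null cells, 7 higher in knockdown 1, and 7 higher and 3 lower in knockdown 2, and 1 member was lower in each of knockdown 1 and knockdown 2 against Rad23b-null cells and in knockdown 2 against knockdown 1. A pseudocount of 5 left 1 member higher in either knockdown, and leaving out members on shared coordinates left 1 higher in knockdown 2, without Gadd45a. Centring on the median of all genes left 0 lower in knockdown 1, where Trp53 then stood at -0.95. After subtracting the median of each gene's chromosome, a setting chosen after seeing the data, 0 members were at least 2-fold lower in any mutant, because Trp53 lies on chromosome 11. Leaving out chromosome 11, also chosen after seeing the data, left 1 regulator at least 2-fold lower in knockdown 2 and 0 other targets in Rad23b-null cells. Where no cause is given for these moves, the cause was not tested. Requiring an authors' fold of at least 2 in both replicates left 17 members with a RAD23B region. The share of all genes under that rule is not given here, so 17 is not read as many or few. By replicate 2 alone 32 members had a region and by replicate 1 alone 33. Of 11687 protein-coding genes with at least 1 RPKM in wild type, 10430 and 10980 had one in the same order. In the Xpc-/- list 0 members had a region within 1 kb of the start or with a fold of at least 2. No paired analysis was possible because each RNA group has 1 library and the ChIP comparison comes from no test. Differences between the RNA libraries have no replicate check at any depth.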
